A study of Mus musculus with 22 samples.

Results

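The genes described here are the 10 that write, maintain and erase 5-methylcytosine in mouse DNA, Dnmt1, Uhrf1, Uhrf2, Dnmt3a, Dnmt3b, Dnmt3l, Tet1, Tet2, Tet3 and Tdg, taken by symbol from the 34489 genes of a bulk RNA-seq count table. The study asked whether activators of AMP-activated protein kinase (AMPK), the cell's energy sensor, turn primed mouse epiblast stem cells (mEpiSCs) back to the naive state of mouse embryonic stem cells (mESCs). The 22 libraries fall into 6 groups. One library comes from naive mESCs (Rex1-GFP, strain 129/Ola, with a GFP reporter of Rex1), maintained in 2iL, that is LIF with inhibitors of MEK and GSK3. Primed cells gave 2 libraries, 1 of Oct4GIP mEpiSCs (strain 129/Ola, with an Oct4 promoter-driven GFP and puromycin resistance transgene) and 1 of 129/MSM mEpiSCs from an MSM/Ms by 129X1/SvJ cross. Both lines were grown with FGF2 and Activin A. Oct4GIP cells were kept on fibronectin in serum-free medium, and 129/MSM cells on feeder fibroblasts in another base medium with serum replacement. Whole Oct4GIP cultures on feeder fibroblasts gave 4 libraries at day 8 (d8) and 4 at day 16 (d16), 1 each in Basal medium, 2iL, AICAR and AICAR+LIF. Cells moved to 2iL after 16 days of treatment and passaged are called reverted. After 2 or 3 passages (d16+2–3p) there were 4 Oct4GIP libraries, treated with AICAR alone or together with LIF. After 10 passages (d16+10p) there were 7: of Oct4GIP, 2 with the same treatments, 2 with A769662 with or without LIF and 1 with metformin+LIF, and of 129/MSM 1 each with AICAR and AICAR+LIF. AICAR, A769662 and metformin activate AMPK, and each background of the mEpiSCs is represented by 1 cell line. The paper lists the Rex1-GFP and Oct4GIP lines as XX and 129/MSM as XY.

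DNA methylation is placed on unmethylated CG dinucleotides by the de novo methyltransferases DNMT3A and DNMT3B, helped by their catalytically inactive partner DNMT3L, and is copied to the new strand at replication by DNMT1, which UHRF1 brings to hemimethylated DNA. TET1, TET2 and TET3 oxidise 5-methylcytosine, and thymine DNA glycosylase (TDG) excises the oxidised bases so that base excision repair can restore cytosine. Naive mESCs in 2iL are known for low DNA methylation, whereas primed epiblast cells are highly methylated. The files hold mRNA counts only, so DNA methylation itself was not measured.

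No condition had a replicate library, and libraries of 1 state served as samples of that state, so a p-value measures the spread between them, which includes activators, passages and lines. In comparisons of states this spread is pooled over all 6 groups, also those not compared, so it rests little on the 2 primed libraries. Library totals lay between 438771 (AICAR+LIF d8) and 5290163 counts (Basal d16), and 3 counts, the smallest level read as detected, corresponded to 5.93 and 0.565 CPM (counts scaled to a common library size with TMM factors) in these libraries. All 6 naive markers were higher in d16+10p than in primed cells by the test used below, and their summed level was 17.7 to 27.8 CPM in primed and 2117 to 3858 CPM in reverted libraries, against 3293 CPM in naive mESCs. The medium changed with the state (2iL in naive and reverted cells, FGF2 and Activin A in primed cells of both lines), so that the effects of medium and state cannot be told apart. Feeder reads were not separated from the others: the summed level of 9 fibroblast genes was 2751 to 3318 CPM at d8 and 5426 to 49361 CPM at d16, with none of the 9 at 0 in any culture, but 30.2 CPM in primed Oct4GIP, 526 CPM in primed 129/MSM and at most 88.2 CPM in reverted libraries. In such bulk libraries, fewer cells of a type and less RNA per cell cannot be told apart.

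Reverted d16+10p cells had more mRNA of 5 of the 10 genes than primed cells (Dnmt1, Uhrf1, Dnmt3l, Tet1 and Tet2) and less of 4 (Dnmt3a, Dnmt3b, Tet3 and Tdg). These calls are adjusted p-values under 0.05 in edgeR's quasi-likelihood test with Benjamini-Hochberg adjustment over all 18739 genes tested, of which 16.7% were called higher and 19.9% lower. Against the same 2 primed libraries, d16+2–3p cells were higher in the same 5 genes and lower in 3 (Uhrf2, Tet3 and Tdg), where 18.0% of all genes were higher and 20.3% lower. Between the 2 sets of reverted cells, 1 gene was higher at d16+10p (Uhrf2) and 3 were lower (Dnmt3a, Dnmt3b and Dnmt3l), while 4.75% of all genes were higher and 4.61% lower. The 2 comparisons with primed cells share their control libraries. The median log2 fold change of the 10 genes was 0.61 at d16+10p and 0.54 at d16+2–3p against primed cells, beside −0.01 and −0.04 over all genes tested. Each median falls in a gap between the genes that rose and those that did not, so it describes no shared shift.

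**Figure D1:**
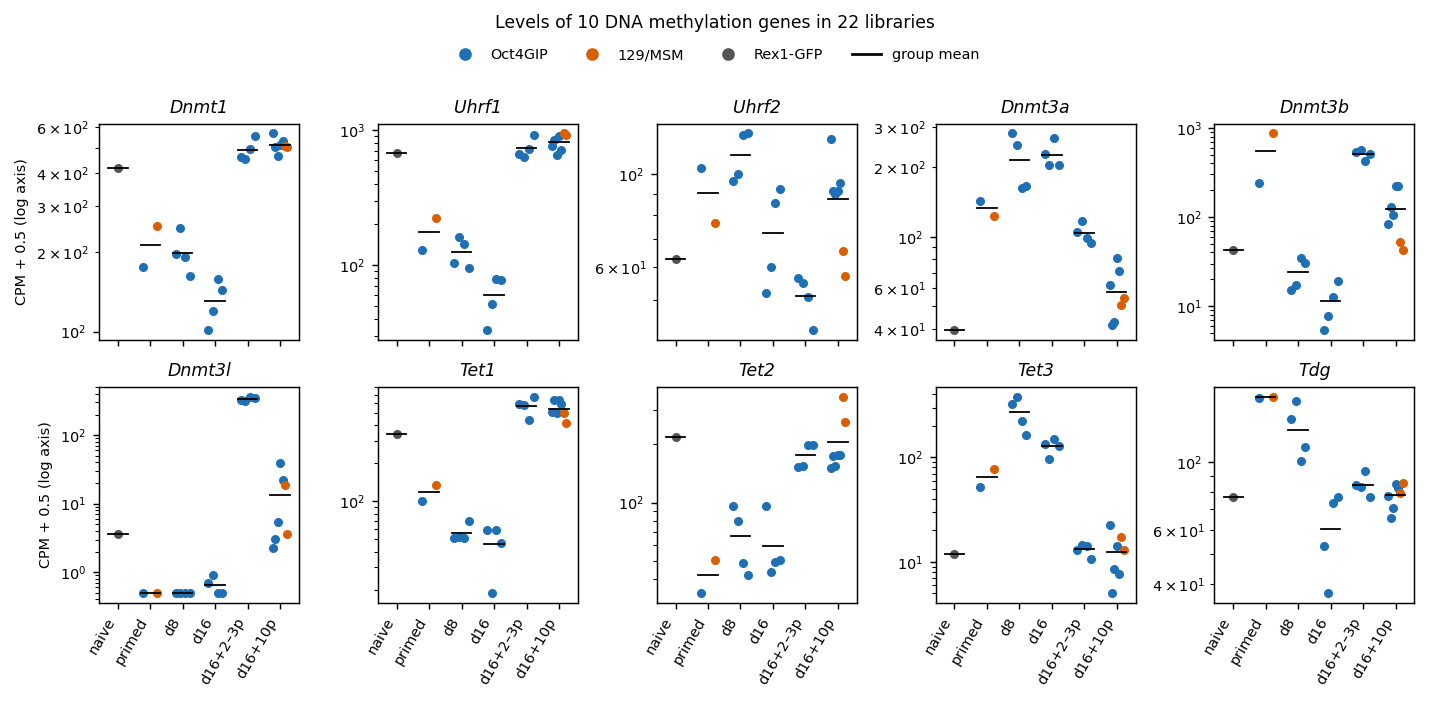
Levels of the 10 genes in each of the 22 libraries, as CPM plus 0.5 on a log axis, by state; each point is 1 library, coloured by cell line, and the bar is the group mean. Dnmt1, Uhrf1, Tet1 and Tet2 of every reverted library lie above both primed libraries, Tet3 and Tdg below both, and Dnmt3l is at 317 to 366 CPM in d16+2–3p and 1.77 to 38.1 CPM in the d16+10p libraries.

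Dnmt1 (ENSMUSG00000004099, GRCm38 chromosome 9, 20907209 to 20959888, minus strand) encodes the maintenance methyltransferase. Its level was 176 CPM in primed Oct4GIP and 251 CPM in primed 129/MSM cells, 461, 453, 495 and 556 CPM in the 4 d16+2–3p libraries, and 465 to 566 CPM (median 507) in the 7 d16+10p libraries. The groups of reverted and primed cells did not overlap, and the naive library, at 420 CPM, lay between them. The rise over primed cells was 2.39-fold at d16+10p (log2 fold change 1.26, SE 0.19, adjusted p = 2.39e-05, edgeR) and 2.30-fold at d16+2–3p (1.20, SE 0.20, adjusted p = 8.05e-05).

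Uhrf1 (ENSMUSG00000001228, chromosome 17, 56303321 to 56323486, plus strand), which recognises hemimethylated CG and recruits DNMT1, was higher as well. Primed Oct4GIP and 129/MSM cells had 129 and 222 CPM, the d16+2–3p libraries 662, 633, 724 and 907 CPM, the d16+10p libraries 648 to 938 CPM (median 835) and naive mESCs 676 CPM. The naive library thus lay within both reverted groups, and every reverted library lay above both primed ones. The fold change was 4.64 at d16+10p (log2 2.21, SE 0.31, adjusted p = 1.25e-05) and 4.16 at d16+2–3p (2.06, SE 0.32, adjusted p = 4.8e-05). The summed level of 11 proliferation genes moved the same way, from 2898 and 2981 CPM in the primed libraries to 4193 to 5143 CPM in the reverted ones, with 6 of the 11 called higher at d16+10p; its part in the levels of Dnmt1 and Uhrf1 was not tested.

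Uhrf2 (ENSMUSG00000024817, chromosome 19, 30030513 to 30093722, plus strand), the UHRF1 paralog, did not follow it. Its level was 103 and 76.1 CPM in the primed libraries and fell to 55.9, 54.3, 50.1 and 41.8 CPM at d16+2–3p (log2 fold change −0.83, SE 0.26, adjusted p = 0.0154). At d16+10p it ranged from 56.4 to 121 CPM (median 90.8), 1.71-fold above d16+2–3p (0.78, SE 0.20, adjusted p = 0.016) with no overlap between the groups. The Oct4GIP libraries at d16+10p held 89.4 to 121 CPM and the 2 129/MSM libraries 64.9 and 56.4 CPM, close to the naive library at 62.1 CPM. Against primed cells, no difference was called at d16+10p (−0.05, SE 0.24, adjusted p = 0.907). The fall at d16+2–3p was no longer called without the primed Oct4GIP library (−0.59, adjusted p = 0.19), and the rise between the reverted groups without AICAR+LIF d16+3p (0.69, adjusted p = 0.0642).

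The 3 de novo genes were all lower at d16+10p than at d16+2–3p, and their promoters are shown because they differ widely in CG, the dinucleotide at which DNA methylation is placed. The sequences are the 250 bases before 1 annotated transcript start of each gene, from RefSeq on GRCm38.p6, all on the plus strand and written 5′ to 3′ with each CG in capitals: Dnmt3a, chr12:3806910-3807159, Dnmt3b, chr2:153649199-153649448, and Dnmt3l, chr10:78049592-78049841.
Dnmt3a: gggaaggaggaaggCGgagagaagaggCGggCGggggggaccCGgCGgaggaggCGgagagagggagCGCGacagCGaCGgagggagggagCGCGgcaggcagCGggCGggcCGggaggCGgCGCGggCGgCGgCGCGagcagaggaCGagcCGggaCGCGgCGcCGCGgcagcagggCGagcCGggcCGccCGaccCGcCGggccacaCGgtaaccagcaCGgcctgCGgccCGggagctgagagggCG
Dnmt3b: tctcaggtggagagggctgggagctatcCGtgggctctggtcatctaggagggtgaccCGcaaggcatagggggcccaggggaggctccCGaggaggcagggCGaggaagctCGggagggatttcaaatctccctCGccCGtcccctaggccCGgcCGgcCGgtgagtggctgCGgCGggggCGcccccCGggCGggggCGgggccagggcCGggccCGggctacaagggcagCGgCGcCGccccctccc
Dnmt3l: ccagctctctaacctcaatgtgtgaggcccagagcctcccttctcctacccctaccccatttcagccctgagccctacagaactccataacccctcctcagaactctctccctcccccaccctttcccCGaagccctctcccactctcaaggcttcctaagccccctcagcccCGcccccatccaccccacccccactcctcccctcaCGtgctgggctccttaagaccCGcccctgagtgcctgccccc

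These windows hold 40, 21 and 4 CG dinucleotides. Of the 32851 promoter windows of the same length in the table, 1.31% hold as many as that of Dnmt3a, 16.3% as many as that of Dnmt3b and 62.2% as many as that of Dnmt3l, and the median is 6. The other 2 windows listed for Dnmt3l hold 5 and 3. For Dnmt3a the window with the most CG is shown. Its others hold 38 and, at an internal start, 15, fewer than the window of Dnmt3b, so the order depends on the window chosen. The GC box GGGCGG, searched on both strands, occurs 4, 3 and 2 times in the 3 windows shown and at least once in 32.7% of all windows; the E box CACGTG occurs once in the Dnmt3l window and in 6.02% of all windows, and the octamer ATGCAAAT in none of the 17 windows of the 10 genes and in 1.60% of all. Whether these promoters were methylated was not measured.

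Dnmt3l (ENSMUSG00000000730, chromosome 10, 78041947 to 78063622, plus strand), the cofactor of DNMT3A and DNMT3B, had the widest range of the 10 genes. It had 0 counts in both primed libraries and 0 or 1 count in each of the 8 cultures at d8 and d16, and then 330, 317, 366 and 353 CPM (834 to 1117 counts) at d16+2–3p. With the primed level set to 3 counts per library, the d16+2–3p mean was at least 310-fold higher (adjusted p = 3.14e-05). At d16+10p it was 1.77 CPM with AICAR (3 counts), 2.60 CPM with AICAR+LIF, 4.93 CPM with A769662, 38.1 CPM with A769662+LIF and 21.4 CPM with metformin+LIF in Oct4GIP, and 18.0 CPM with AICAR and 3.14 CPM with AICAR+LIF in 129/MSM. The mean of these was at least 11.6-fold above the primed limit (adjusted p = 0.00553), but the AICAR library was at the limit itself, and the call was lost when counts were thinned to the smallest library (adjusted p = 0.07) or without primed 129/MSM (adjusted p = 0.0515). Naive mESCs had 3.10 CPM (10 counts), so that 4 of the 7 d16+10p libraries, with 3 to 16 counts, were near the naive level and the other 3 above it. Aire, which overlaps Dnmt3l on the opposite strand, had 170 counts over all libraries against 4229 for Dnmt3l. From d16+2–3p to d16+10p it fell 26.1-fold (−4.71, SE 0.54, adjusted p = 0.000136), and in all 11 fits that left out 1 library this stayed past the threshold (−5.26 to −4.52).

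Dnmt3b (ENSMUSG00000027478, chromosome 2, 153649450 to 153687730, plus strand) differed between the 2 primed lines, with 238 CPM in Oct4GIP and 865 CPM in 129/MSM. At d16+2–3p it was 531, 568, 419 and 510 CPM, between the primed values, and no difference from primed cells was called (log2 fold change −0.12, SE 0.57, adjusted p = 0.895). All d16+2–3p libraries were Oct4GIP, and each lay above primed Oct4GIP. Among Oct4GIP libraries alone, with a lone primed library, the log2 fold change of Dnmt3b was 1.06. At d16+10p it ranged from 41.9 to 224 CPM (median 106), below every d16+2–3p library, and the fall was 4.13-fold (−2.05, SE 0.41, adjusted p = 0.00308). The 2 libraries with the most Dnmt3b at d16+10p, A769662+LIF (224 CPM) and metformin+LIF (222 CPM), were also the 2 with the most Dnmt3a and Dnmt3l, and the 129/MSM library with AICAR+LIF, at 41.9 CPM, equalled the naive library. Against primed cells the d16+10p level was 4.5-fold lower (−2.17, SE 0.48, adjusted p = 0.0013). That call rested on the primed 129/MSM library: without it the log2 fold change was −0.96 (adjusted p = 0.262), and among Oct4GIP libraries alone it was −0.67 (adjusted p = 0.343).

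Dnmt3a (ENSMUSG00000020661, chromosome 12, 3806007 to 3914443, plus strand) fell as well after 10 passages. It had 142 and 123 CPM in the primed libraries and 105, 117, 98.8 and 93.8 CPM at d16+2–3p, a difference that was not called although the groups did not overlap (−0.36, SE 0.25, adjusted p = 0.269). At d16+10p it lay between 40.9 and 80.7 CPM (median 54.1), 1.81-fold below d16+2–3p (−0.86, SE 0.18, adjusted p = 0.00474) and 2.32-fold below primed cells (−1.22, SE 0.22, adjusted p = 0.000194). All 7 libraries were under all 6 of the earlier ones, and the naive library, at 39.1 CPM, was lower still. With Oct4GIP cells treated with AICAR or AICAR+LIF alone (2 libraries at d16+10p, 4 at d16+2–3p), the differences between the reverted groups were −1.04 for Dnmt3a (adjusted p = 0.0419), −2.26 for Dnmt3b (adjusted p = 0.0331) and −7.21 for Dnmt3l (adjusted p = 7.92e-06). The Dnmt3a call between the reverted groups was lost when counts were thinned to the smallest library, with a change of similar size (−0.83, adjusted p = 0.0694). Within d16+2–3p, both libraries at passage 3 had less Dnmt3a and Dnmt3b and more Dnmt3l than both at passage 2, which is a description of 2 libraries each.

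**Figure D2:**
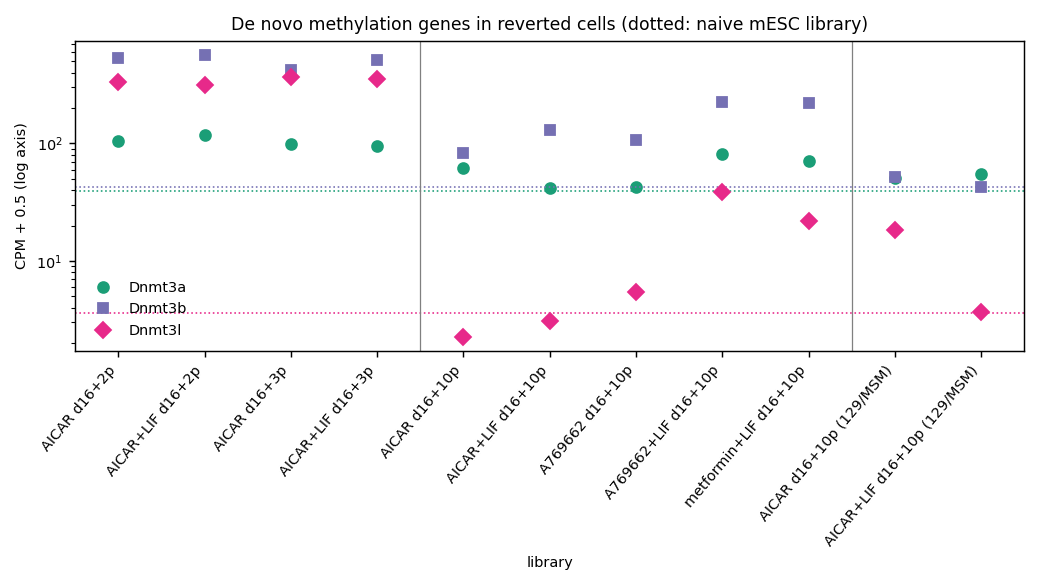
Dnmt3a, Dnmt3b and Dnmt3l in each of the 11 reverted libraries, as CPM plus 0.5 on a log axis; vertical lines part d16+2–3p, Oct4GIP d16+10p and 129/MSM d16+10p, and dotted lines give the naive mESC library. All 3 genes are lower in every d16+10p library than in any d16+2–3p library, and A769662+LIF and metformin+LIF hold the highest d16+10p levels of each gene.

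The line comparison set 129/MSM against Oct4GIP in primed cells and in cells reverted with AICAR or AICAR+LIF to d16+10p (3 libraries each). In this fit, 0 of the 9 genes tested were called by edgeR, DESeq2 or limma voom. Over all 12954 genes, edgeR called 0.0926% higher in 129/MSM and 0.0232% lower. An unadjusted p under 0.05 in edgeR was found for 2 of the 9 (Uhrf2 and Tet2) and for 1422 of all genes. Dnmt3l was not tested there. Sex differs with the line (XX in Oct4GIP, XY in 129/MSM), so that effects of sex and of background cannot be told apart. The line difference of Dnmt3b had opposite signs in the 2 states: primed 129/MSM cells had 865 CPM against 238 CPM, while reverted 129/MSM cells had 51.5 and 41.9 CPM against 83.0 and 129 CPM. The difference of the 2 line effects was −3.05 on the log2 scale (SE 0.37, adjusted p = 0.00382, edgeR interaction term), the one member call among 9 tested, beside 855 calls over 12954 genes. Each primed line is 1 library here, so that the residual spread behind this p comes from the 4 reverted libraries and does not measure how primed cultures vary. The primed libraries also differed in base medium, feeders and fibroblast genes (30.2 and 526 CPM in sum), whose part in the difference was not tested. Among the reverted libraries alone, where 531 of 12963 genes were called higher in 129/MSM and 520 lower, 3 of the members were called: Dnmt3b (−1.16, adjusted p = 0.0161) and Uhrf2 (−0.78, adjusted p = 0.0261) were lower in 129/MSM and Tet2 was higher (0.91, adjusted p = 0.0186).

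**Figure D3:**
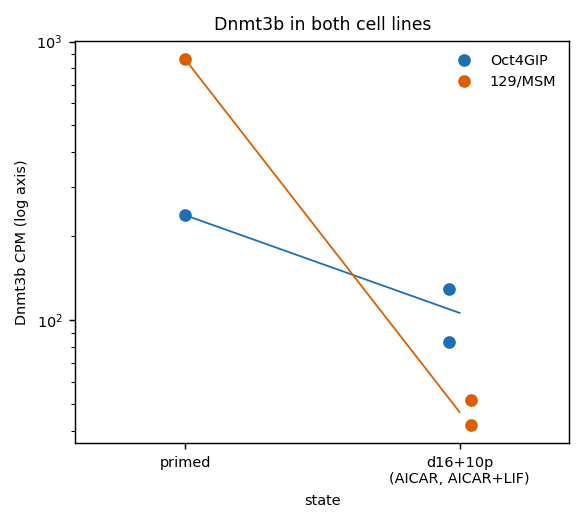
Dnmt3b level in CPM on a log axis in primed cells and in cells reverted with AICAR or AICAR+LIF to d16+10p, for both lines; each point is 1 library and lines join the means. The line with the higher level in primed cells, 129/MSM, has the lower level after reversion.

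Of the TET dioxygenases, Tet1 and Tet2 were higher in reverted than in primed cells and Tet3 was lower. Tet1 (ENSMUSG00000047146, chromosome 10, 62804570 to 62908996, minus strand) had 100 and 135 CPM in the primed libraries, 593, 578, 443 and 676 CPM at d16+2–3p, and 415 to 640 CPM (median 510) at d16+10p. Every reverted library was above the naive one, at 341 CPM. The rise over primed cells was 4.6-fold at d16+10p (log2 fold change 2.2, SE 0.32, adjusted p = 1.65e-05) and 4.87-fold at d16+2–3p (2.29, SE 0.33, adjusted p = 2.2e-05). No difference was called between the reverted groups (−0.08, SE 0.21, adjusted p = 0.873).

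Tet2 (ENSMUSG00000040943, chromosome 3, 133463679 to 133545139, minus strand) had 33.5 and 49.9 CPM in primed cells and 152, 154, 199 and 198 CPM at d16+2–3p. At d16+10p it held 150 to 175 CPM in the 5 Oct4GIP libraries and 354 and 260 CPM in the 129/MSM ones, with 218 CPM in naive mESCs between them. The rise over primed cells was 4.93-fold at d16+10p (2.30, SE 0.40, adjusted p = 0.000119) and 4.21-fold at d16+2–3p (2.07, SE 0.41, adjusted p = 0.000476). Its RefSeq promoter window (250 bases) holds 51 CG dinucleotides, a number that 0.0670% of all windows reach.

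Tet3 (ENSMUSG00000034832, chromosome 6, 83362373 to 83459084, minus strand), best known from the oocyte and zygote, went the other way. Primed cells had 51.5 and 77.1 CPM, d16+2–3p libraries 12.4, 14.1, 13.8 and 10.2 CPM, d16+10p libraries 4.54 to 21.8 CPM (median 12.5) and naive mESCs 11.5 CPM. The fall from primed cells was 5.51-fold at d16+10p (−2.46, SE 0.34, adjusted p = 1.01e-05) and 5.09-fold at d16+2–3p (−2.35, SE 0.39, adjusted p = 9.03e-05). The reverted values rest on 14 to 42 counts per library, so the order within these groups is not resolved at this depth.

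Tdg (ENSMUSG00000034674, chromosome 10, 82629828 to 82650799, plus strand), the glycosylase that completes TET-driven demethylation, had 161 and 163 CPM in primed cells. It fell to 83.4, 82.1, 92.6 and 76.6 CPM at d16+2–3p (−0.95, SE 0.22, adjusted p = 0.0016) and to 64.9 to 84.7 CPM (median 78.8) at d16+10p (−1.07, SE 0.19, adjusted p = 0.000203). The naive library had 76.3 CPM, within the d16+10p group and just under the d16+2–3p one. The annotated copies Tdg-ps and Tdg-ps2 had 1740 and 1169 counts over the 22 libraries against 5368 for Tdg, and reads from near-identical copies may have been counted on any of them, so the 3 were also summed. With the sum the changes were −0.86 and −1.02, both still called.

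**Figure D4:**
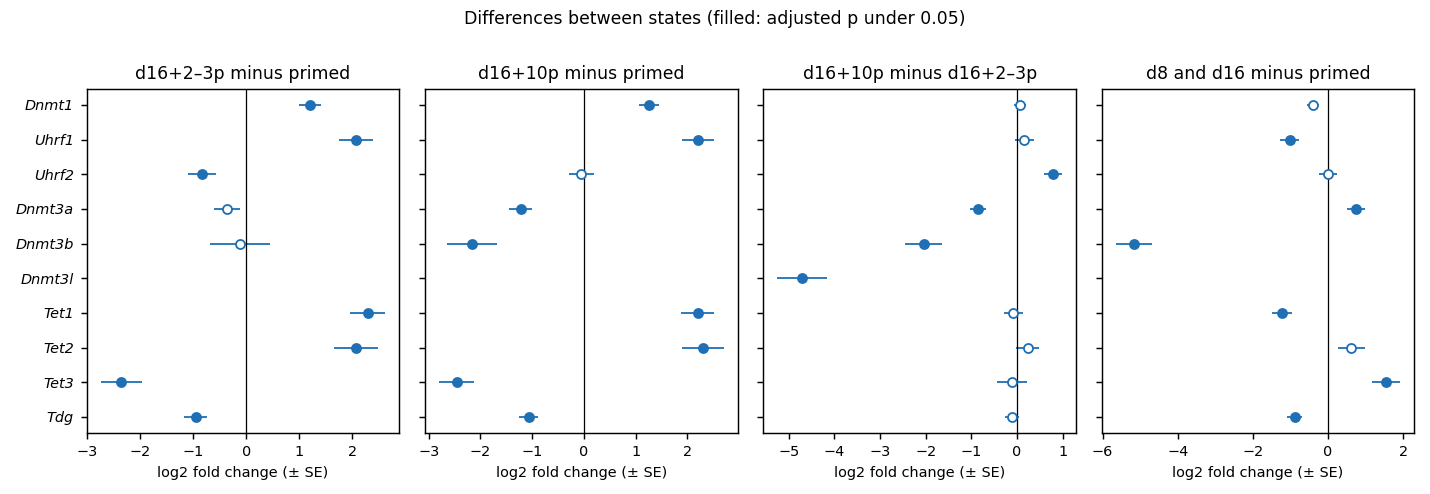
Log2 fold changes with their standard errors for the 10 genes in 4 comparisons of states; filled points have an adjusted p under 0.05 in edgeR's quasi-likelihood test. Dnmt3l is not drawn against primed cells, where its counts were 0, and the panel of the reverted groups shows that the 3 de novo genes and Uhrf2 differ between the reverted groups.

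Whole cultures before expansion were compared with primed cells. The cultures had lost most Pou5f1 (Oct4) mRNA, with means of 640 CPM in primed cells, 13 CPM at d8 and 6.69 CPM at d16. Nanog fell likewise (152, 25.4 and 10.3 CPM), but Sox2 did not (55.6, 172 and 175 CPM). The paper reports that Oct4-GFP was lost in these cultures, with some positive colonies back around d16 under AICAR. Against primed cells, 2 of the 10 genes were higher in the 8 cultures at d8 and d16 (Dnmt3a and Tet3) and 4 were lower (Uhrf1, Dnmt3b, Tet1 and Tdg), where 18.1% of all genes were higher and 19.4% lower. Dnmt3b had the largest of these changes, with 14.8, 16.6, 34.1 and 29.7 CPM at d8 in Basal medium, 2iL, AICAR and AICAR+LIF and 4.90, 7.22, 12.2 and 18.8 CPM at d16. All 8 values lay below both primed libraries, and the mean was 36.1-fold lower (−5.17, SE 0.48, adjusted p = 2.22e-07). Tet3 was 326, 382, 221 and 164 CPM at d8 and 134, 96.6, 148 and 129 CPM at d16, above both primed libraries throughout (1.54, SE 0.38, adjusted p = 0.00357). Dnmt3a, at 163 to 280 CPM, was 1.66-fold higher than in primed cells (0.74, SE 0.24, adjusted p = 0.0204).

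Tet1 was 2.33-fold lower in the cultures (18.4 to 69.2 CPM; −1.22, SE 0.26, adjusted p = 0.00101), and no culture reached a primed library. Tdg (36.9 to 157 CPM) was 1.86-fold lower (−0.89, SE 0.19, adjusted p = 0.00118) and Uhrf1 (32.8 to 160 CPM) 2.03-fold lower (−1.02, SE 0.25, adjusted p = 0.00343), the latter with overlap between the groups. Dnmt1 had 101 to 248 CPM (−0.40, SE 0.17, adjusted p = 0.0624), Tet2 41.5 to 95.5 CPM (0.62, SE 0.36, adjusted p = 0.184) and Uhrf2 51.3 to 125 CPM (−0.01, SE 0.24, adjusted p = 0.998). With only 2 primed libraries some calls rested on one of them: without primed 129/MSM, Uhrf1 (adjusted p = 0.157) and Dnmt3a (adjusted p = 0.174) were lost, and without primed Oct4GIP, Dnmt3a (adjusted p = 0.074) and Tet3 (adjusted p = 0.0743). The fibroblast genes given above were 6 of 9 higher in these cultures, and all 11 proliferation genes were lower, from 606 to 2288 CPM in sum. The parts of feeder cells and of lost pluripotency in the members' levels were not tested.

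From d8 to d16, 6 of the 9 genes tested fell (Dnmt1, Uhrf1, Uhrf2, Dnmt3b, Tet3 and Tdg) and 0 rose, beside 13.1% of 14026 genes lower and 18.1% higher. Uhrf1 went from 104, 160, 143 and 94.9 CPM in Basal medium, 2iL, AICAR and AICAR+LIF at d8 to 32.8, 51.3, 78.3 and 77.2 CPM at d16, without overlap (−1.13, SE 0.27, adjusted p = 0.0152). Tdg went from 138, 157, 100 and 111 CPM to 52.8, 36.9, 72.7 and 76.4 CPM (−1.11, SE 0.24, adjusted p = 0.0107). Tet3, whose values are given above, fell from 273 to 127 CPM in the mean (−1.04, SE 0.23, adjusted p = 0.0121). Uhrf2 changed by −0.64 (SE 0.13, adjusted p = 0.00931), and Dnmt3b, whose groups overlapped, by −1.21 (SE 0.25, adjusted p = 0.00969). The call of Dnmt1 (−0.61, SE 0.18, adjusted p = 0.0306) was lost in 6 of 8 fits that left out 1 library (adjusted p 0.0535 to 0.08). The library left out was Basal d16, 2iL d16, AICAR+LIF d16, Basal d8, 2iL d8 or AICAR d8. The call of Dnmt3b was lost without AICAR d8 and AICAR+LIF d8, the shallowest libraries (−1.33, adjusted p = 0.0523). Only Basal medium and 2iL then remained at d8. The fibroblast genes rose and the proliferation genes fell over the same interval, by 6 of 8 and 10 of 11 genes tested.

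**Figure D5:**
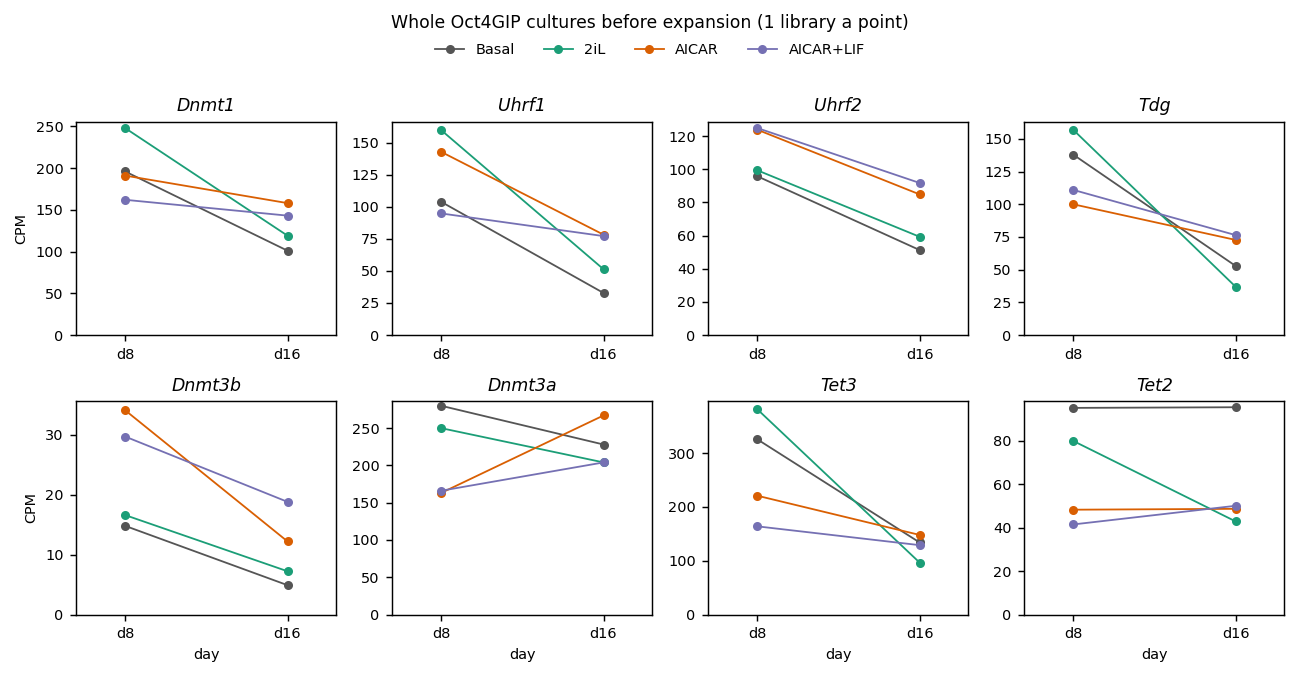
Levels in CPM of 8 of the genes in whole Oct4GIP cultures at d8 and d16; each point is 1 library and lines join the 2 days of a treatment. Dnmt1, Uhrf1, Uhrf2, Tdg, Dnmt3b and Tet3 fall in all 4 treatments, and Dnmt3a and Tet2 do not. The cultures with AICAR have more Uhrf2 and Dnmt3b than the cultures without it on the same day.

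Between cultures with and without AICAR, with the day as a covariate, 2 of the 9 genes tested were called higher and 0 lower, where 3.54% of 14026 genes were higher and 6.06% lower. Uhrf2 had 124 and 125 CPM with AICAR and AICAR+LIF at d8 against 95.9 and 99.5 CPM in Basal medium and 2iL, and 84.9 and 91.8 CPM against 51.3 and 59.3 CPM at d16 (log2 fold change 0.56, SE 0.13, adjusted p = 0.036). Dnmt3b, whose values are given above, was 2.37-fold higher (1.25, SE 0.25, adjusted p = 0.0234). On each day both AICAR cultures thus exceeded both others, but most left-out libraries ended the calls. Uhrf2 was no longer called in 7 of 8 fits that left out 1 library and Dnmt3b in 6 of 8, the exceptions being 2iL d16 for both and AICAR d16 for Dnmt3b, although the log2 fold changes stayed between 0.49 and 0.60 for Uhrf2 and between 1.10 and 1.35 for Dnmt3b in all 8. Both calls were lost without a day term, at log2 fold changes of 0.54 and 1.17 (adjusted p = 0.343 and 0.263). The 2 AICAR cultures at d8 are the 2 shallowest libraries (956357 and 438771 counts), and without them the log2 fold changes were 0.65 and 1.35, no smaller than with them, but were not called (adjusted p = 0.144 and 0.148). That fit held no AICAR culture at d8, so its AICAR effect is that at d16 alone. The AICAR effect was called different between the days for 0 of the 9 genes and for 28 of all 14026 in edgeR's interaction test. Of the 9, 3 had an unadjusted p under 0.05 in this test (Dnmt3a, Tet3 and Tdg), beside 2111 of all 14026 genes. The lowest adjusted p was 0.18, for Tdg. Dnmt3l had 0 counts in all 4 AICAR cultures and at most 1 count in the others.

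LIF during the treatment left no called difference in the reverted cells. Over 4 pairs of AICAR+LIF and AICAR libraries of the same line and passage, 0 of the 10 genes were called by edgeR, DESeq2 or limma voom, and 0 had an unadjusted p under 0.05 in edgeR. In this comparison 0% of 12940 genes were called higher and 0% lower, with 310 genes at an unadjusted p under 0.05. The largest differences were −0.65 for Tet3 (SE 0.35), on 14 to 42 counts per library, and −0.30 for Dnmt3l (SE 0.27). Dnmt1 differed by −0.02 (SE 0.08) and Uhrf1 by 0.09 (SE 0.09).

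Levels were compared between genes only after division by the length of the gene's exons, as CPM per kilobase. On this scale, Uhrf1 led at d16+2–3p (172 ± 28.8, SD, n = 4 libraries) and at d16+10p (191 ± 26.1, SD, n = 7), as it did in the naive library (159), while Dnmt3b led in primed cells (46.8 in Oct4GIP and 169 in 129/MSM), where its range overlapped that of Uhrf1. At d16+2–3p, Dnmt3l (114 ± 7.40) and Dnmt3b (99.3 ± 12.5) came next and overlapped. At d16+10p, Dnmt1 (69.2 ± 4.06) came next, then Tet1 (35.0 ± 5.35), Dnmt3b (23.9 ± 14.6), Tdg, Tet2, Uhrf2, Dnmt3l (4.29 ± 4.56) and Dnmt3a (3.43 ± 0.876), and from Tet1 on each of these overlapped the next. Tet3 was last in the naive and both reverted groups (0.688 to 0.756 in the mean) but exceeded the 3 Dnmt3 genes in the mean at d8 (16.4 ± 5.87, n = 4), where it overlapped Dnmt3a. The order is one of mRNA levels and rests on annotated exon lengths.

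Transcript counts were read for transcripts with separate annotated starts. The Tet1 transcript ENSMUST00000227494, whose start at position 62892986 of chromosome 10 is not shared by the longer Tet1 transcripts, had 8 of 1098 Tet1 counts in naive mESCs, 42 of 6672 at d16+2–3p (7 to 15 per library) and 65 of 10409 at d16+10p (6 to 18 per library). It had 0 of 699 in primed cells, which allows a share of up to 0.429%, and 0 of 355 and 0 of 675 at d8 and d16, which allow up to 0.845% and 0.444%. Shares of 0.629% and 0.624% in reverted cells are thus above the limit of the primed group but below that of the d8 group, and limits cover counting error only. For Dnmt3a, transcripts with an annotated start at or after position 3885449 took 27.4% and 27.9% of the counts in primed libraries, 24.8% to 36.3% at d16+2–3p, 26.1% to 34.6% at d16+10p and 31.0% in naive mESCs, so the groups overlapped. These are counts over whole transcripts, which can include reads shared with the longer isoforms, so they do not measure use of a start. Counts of the long isoforms of Dnmt1, Dnmt3b and Tet1 were nearly equal within each gene. How reads common to isoforms were assigned was not tested, and no isoform difference was read from these.

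Other genes of DNA methylation were counted by list. Of 14 recruitment and maintenance partners, 8 were higher at d16+10p than in primed cells, 1 was lower and 5 were not called (median log2 fold change 0.95), where 16.7% of all genes were higher and 19.9% lower. At d16+2–3p 9 of the 14 were higher and 1 lower (median 1.25), beside 18.0% and 20.3% of all genes. Trim28, the corepressor that directs methylation to repeats and imprints, went from 570 CPM in primed cells to 2173 CPM at d16+2–3p and to 1595 CPM by d16+10p (1.93, SE 0.18, adjusted p = 1.54e-07, and 1.48, SE 0.17, adjusted p = 1.02e-06). Usp7, which binds DNMT1 and UHRF1, rose from 214 to 542 CPM at d16+10p (1.34, SE 0.14, adjusted p = 2.21e-07). Zfp57, the imprint-binding zinc finger protein, rose from 90.5 to 335 CPM (1.89, SE 0.57, adjusted p = 0.0132), and Nsd1, the histone H3K36 methyltransferase, from 134 to 426 CPM (1.67, SE 0.23, adjusted p = 8.7e-06). In the cultures none of the 14 was higher than in primed cells and 6 were lower (18.1% and 19.4% of all genes), led by Hells (−1.57, SE 0.28, adjusted p = 0.000261) and Cdca7 (−1.32, SE 0.28, adjusted p = 0.00122), which together form a remodeller required for methylation. Between the reverted groups 3 of the 14 were lower at d16+10p (4.61% of all genes): Kdm2b (−1.06, adjusted p = 0.00633), Ehmt1 (−0.90, adjusted p = 0.000537) and Trim28 (−0.45, adjusted p = 0.0196).

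Of 8 modulators of DNMT or TET proteins, 3 were higher and 1 lower than in primed cells in both reverted groups. Over all genes 16.7% were higher and 19.9% lower at d16+10p, and 18.0% and 20.3% at d16+2–3p, so that the number lower was not above the share over all genes. Prdm14, a repressor of de novo methyltransferase genes, had 0 and 1 count in the primed libraries, between 13.7 and 25.8 CPM at d16+2–3p and between 46.4 and 100 CPM by d16+10p, beside 67.6 CPM in naive mESCs. Of the 8, only Prdm14 was called between the reverted groups (1.69, SE 0.27, adjusted p = 0.00101). Dppa3, whose protein displaces UHRF1 from chromatin, had 0 counts in both primed libraries, between 12.6 and 48.3 CPM at d16+2–3p and between 23.3 and 131 CPM by d16+10p. Idh2, a source of the TET cofactor 2-oxoglutarate, rose from 66.6 to 185 CPM at d16+10p (1.47, SE 0.33, adjusted p = 0.00144). Cxxc4, an inhibitor of TET2, fell from 42.0 CPM in primed cells to 0 to 5 counts per library at d16+10p (adjusted p = 4.41e-08). Dnmt3c, the rodent germline copy of Dnmt3b, had 4 counts in primed Oct4GIP and 111 in primed 129/MSM, and 0 to 18 elsewhere; adding its counts to Dnmt3b changed no call.

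Base excision repair, methyl-CpG readers and methyl donor genes were mixed. Of 10 repair genes, 4 were higher and 2 lower at d16+10p than in primed cells (median 0.21), beside 16.7% and 19.9% of all genes, so that the number lower was at the share over all genes. Ung (1.66, SE 0.29, adjusted p = 0.000124), a uracil glycosylase, and Parp1 (1.29, SE 0.20, adjusted p = 3.6e-05) and Apex1 (1.06, SE 0.17, adjusted p = 5.66e-05), which act after base removal, rose, in contrast to Tdg, and Neil3 fell (−1.15, SE 0.40, adjusted p = 0.0275). In the cultures 6 of the 10 were lower than in primed cells, beside 19.4% of all genes. Of 7 readers, Zbtb38 rose (2.57, SE 0.45, adjusted p = 0.000137) and Zbtb4 fell (−2.91, SE 0.47, adjusted p = 5.56e-05) at d16+10p. Mat2a, which makes the methyl donor S-adenosylmethionine, has 2 entries in the table, which rose to 183 and 180 CPM from 85.9 and 86.5 CPM (adjusted p = 0.00404 and 0.00828).

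The genes whose log2 CPM followed 4 of the members most closely over the 22 libraries were listed among 11048 genes by Pearson's r. The libraries fall into groups by state, so r mainly reflects differences between states and is given as a description. For Dnmt1 these were Uhrf1 (r = 0.992), Mybl2 (0.986), Cct3 (0.983), Rad54l (0.982) and Pcna (0.982), and for Dnmt3b Lin28a (0.944), Gm44206 (0.932), Gm9260 (0.929), Nr6a1 (0.915) and Odc1 (0.914). For Tet2 they were H2-M5 (0.971), Kdm3b (0.954), Zbtb43 (0.945), Gabarapl2 (0.939) and Bclaf3 (0.931), and for Dnmt3l Olfr539 (0.935), Dus3l (0.927), Fastkd2 (0.913), Nufip2 (0.913) and Washc4 (0.910).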

How the data were processed

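Libraries made with a stranded mRNA kit were sequenced as single reads and aligned by the authors with Bowtie2 2.2.5 (per the labels) to cDNA and ncRNA of Ensembl's GRCm38 build, and alignments with a mapping quality of at least 1 were kept. What the authors deposited are raw counts per gene and per transcript, without normalization; whether strand was used is not given in the sources used here. Reads common to paralogs or isoforms can therefore be lost or fall on either. Their table of detected genes was not used.

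The deposited counts were tested in edgeR 4.0.16 (R 4.3.3) by quasi-likelihood (TMM factors, filterByExpr, Benjamini-Hochberg adjustment over all genes tested, threshold 0.05). Comparisons between states used all 22 libraries in 6 groups (18739 of 34489 genes tested), and the AICAR, day, line and LIF comparisons used the 8, 8, 6 and 8 libraries concerned. CPM are counts divided by the library total and its TMM factor. Library totals were 438771 to 5290163, and 3 counts were taken as the floor, which covers counting error only. The naive library entered no contrast. Alternatives used DESeq2 1.42.0, limma 3.58.1, other normalizations, filters, library sets, thinned counts and libraries left out singly; those without the 3 lowest totals, with copies summed, and of the Dnmt3b interaction were chosen after seeing the data. The 3 lowest totals were AICAR+LIF d8, AICAR d8 and Oct4GIP AICAR d16+10p, each left out only where a fit held it. Each comparison was tried on simulated data, but the interaction tests were not. Exon lengths and positions are from GENCODE M21 and promoters from RefSeq (10 of 10 genes matched, 17 windows).

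The members and gene lists were chosen with earlier results of these data known. All 10 members are named; of the other DNA methylation genes, up to 4 per list and comparison with an adjusted p under 0.05 and the largest change could be named, and for likeness the 5 genes with the highest Pearson r among those with a mean log2 CPM of at least 3. Python 3.11.15 with pandas 2.3.3 and matplotlib 3.10.9 served for tables and figures.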

Additional observations from a re-analysis of the deposited data

Results flagged for a closer look

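Over 39 sets of libraries of 1 group and 1 member, 1 library stood apart by Dixon's criterion, where chance gives about 1 in 20. Tet1 was at 69.2 CPM in AICAR+LIF d8, against 51.8 CPM in the next of the 4 d8 libraries. This value rests on 35 counts in the library with the lowest total, and the same library stood apart with a pseudocount of 2.

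For Dnmt3b, the fitted effect of 129/MSM against Oct4GIP in d16+10p cells minus that in primed cells was −3.05 on the log2 scale (SE 0.37, adjusted p = 0.00382, edgeR interaction term). Across the 4 fits that left out 1 reverted library it ranged from −3.32 to −2.69. The primed effect compares 1 library per line, and the residual spread comes from the 4 reverted libraries alone, so that the p does not cover variation between primed cultures.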

How the results depend on the processing

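With no replicated condition, the p-values above measure the spread within states, pooled over the groups of a fit, and at 438771 to 5290163 counts per library a level under 3 counts was not read. No paired analysis by replicate number was possible because the columns carry none; the LIF comparison was paired by line and passage, and the AICAR comparison had the day as a term. Of 1399 recomputed values for single genes, 1338 kept their side of the threshold, 43 lost it, 18 gained it and 0 of the called ones reversed; a sign changed in 64, all between values past no threshold. DESeq2, limma voom and RLE factors changed 0 of 76 calls each, no normalization factors changed 1 and no filter 3. Changes of members' calls not given above follow. In cultures against primed cells, Dnmt1 was called lower without factors (−0.48, adjusted p = 0.0272), at d16 alone (−0.71, adjusted p = 0.00383) and without 2iL d8, AICAR d16 or primed Oct4GIP, Tet2 was called higher with thinned counts (1.14, adjusted p = 0.0462), and at d8 alone Uhrf1 (−0.48, adjusted p = 0.233) and Tdg (−0.35, adjusted p = 0.261) were not called. In the same comparison Dnmt3a was lost with only the groups compared (0.65, adjusted p = 0.0579), and with Oct4GIP libraries alone Dnmt3a (0.66, adjusted p = 0.154) and Uhrf1 (−0.55, adjusted p = 0.215) were lost. For AICAR, Uhrf2 was lost without a filter (0.53, adjusted p = 0.119) and with thinned counts (0.66, adjusted p = 0.0539), and for the day Dnmt1 with thinned counts (−0.54, adjusted p = 0.0731). Tet2 was called lower with AICAR without a filter (−0.69, adjusted p = 0.0327) and without 2iL d16 (−0.90, adjusted p = 0.00755). The count of all genes called, 6863 at d16+10p against primed, 7180 at d16+2–3p against primed, 1753 between these reverted groups, 7032 in cultures against primed, 1347 for AICAR, 4383 for the day, 15 for the line and 0 for LIF, depended on the setting. With at least 10 counts in every library it was 2880, 3195, 856, 3477, 792, 2871 and 4 for all but LIF, in this order, and with counts thinned to the smallest total 3542, 3701, 637, 3899, 778 and 2024 for the first 6. Fitting only the groups compared gave 3002 between the reverted groups and 4595 for cultures, and Oct4GIP with AICAR or AICAR+LIF alone gave 504 between the reverted groups. For AICAR, DESeq2 called 2140, no filter 3143, the fit without a day term 37 and the one without the 3 lowest totals, chosen after seeing the data, 0 in edgeR; the last 2 and thinning left 0 of the 2 members. For the line, DESeq2 called 220, no filter 929 (1 member, Tet2), the reverted libraries alone 1051 (3 members) and the fit without the 3 lowest totals 4. For LIF, no filter called 68 genes. Leaving out 1 library gave 4462 (without primed Oct4GIP) to 6766 genes at d16+10p against primed, 5081 to 6479 at d16+2–3p against primed, 939 (without AICAR d16+2p; 965 without AICAR+LIF d16+2p, 1087 without AICAR d16+3p) to 1847 between the reverted groups, 4115 (without primed Oct4GIP) to 7260 in cultures against primed, 245 (without AICAR d8) to 2654 (without 2iL d16) for AICAR with 0 to 3 members, 2411 (without 2iL d8; 2858 without Basal d8) to 4067 for the day, and 3 (without 129/MSM AICAR d16+10p) to 1402 (without primed Oct4GIP; 1323 without primed 129/MSM) for the line with 0 to 3 members. The cause of these changes was not tested, beyond the fewer genes or libraries that the settings themselves bring.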
